A study of Mus musculus with 6 samples.

Results

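Histones are the proteins around which DNA is wound, and 69 of the 22298 genes of the deposited expression table carry a histone name of the kind followed here, with a symbol that starts with Hist1h, Hist2h, Hist3h, Hist4h, H1f, H2af or H3f. Of these, 53 are clustered genes (Hist1h to Hist4h), which lie side by side in arrays, and 16 are replacement genes (H1f, H2af and H3f), which lie scattered through the genome. Both kinds were measured in the ocular lens of newborn mice (postnatal day 0, strain C57BL/6 in both groups). The groups were wild-type (WT) mice and mice labelled Fyco1-/-, a knockout of the autophagy adaptor gene Fyco1, with 3 libraries each, called A, B and C here as in the labels. Each library was a biological replicate of 10 pooled lenses, so p-values measure the spread between pools of lenses. How the Fyco1 allele was made is not given in the sources used here. Levels are FPKM, read fragments scaled to gene length and library size, as the authors deposited them. All 22298 listed genes have a value above 0 in at least 1 library. Clustered genes of the annotation GENCODE M21 that are not listed, Hist2h3b and Hist1h2ba among them, are outside the counts of clustered genes given here.

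The core histones H2A, H2B, H3 and H4 form the nucleosome, and the linker histone H1 binds the DNA where it enters and leaves. Clustered genes supply most histone during DNA replication. Most have no introns, and their mRNA as a rule ends in a short stem-loop that is bound by the stem-loop binding protein Slbp, in place of a poly(A) tail. Replacement genes are transcribed throughout the cell cycle and in cells that have left it, give poly(A) mRNA and often contain introns. Some clustered genes are also known to give longer, polyadenylated mRNA in cells that have stopped dividing. The newborn lens holds a front layer of epithelial cells, some of which divide, and a large mass of fibre cells that have left the cell cycle and lose their nuclei.

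The stem-loop was searched in the gene models of GENCODE release M21 (GRCm38), on the sense strand, as the 16 bases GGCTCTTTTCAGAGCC, the form that the most clustered genes hold (20), with up to 2 mismatches and 6 paired bases in the stem. It was found in 34 of the 53 clustered genes, exactly in 20 of them, with 1 mismatch in 7 and with 2 mismatches in 7. None of the 16 replacement genes held it. Among all 55450 genes of that annotation with transcripts, 29 (0.0523%) held the exact 16 bases, and 9 of those are not among the 69. The following sequences are shown because they belong to genes whose levels are described in detail and show how alike the loops are, with the stem-loop in capitals and 5 bases on either side, 5′ to 3′.
Hist1h1c: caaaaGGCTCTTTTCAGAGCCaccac
Hist1h1e: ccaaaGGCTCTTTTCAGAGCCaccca
Hist3h2ba: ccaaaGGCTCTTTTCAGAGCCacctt
Hist1h2bg: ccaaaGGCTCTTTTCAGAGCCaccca
Hist1h2bb: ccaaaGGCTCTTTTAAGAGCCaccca
Hist1h4h: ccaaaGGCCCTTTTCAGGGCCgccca
Hist2h2ac: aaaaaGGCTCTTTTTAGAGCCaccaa
The stem-loop of Hist1h1c, Hist1h1e, Hist3h2ba and Hist1h2bg was the searched sequence itself. Hist1h4h held another pair in its stem, and the changes in Hist1h2bb and Hist2h2ac lay in the loop, as the capitals show. The genes differ more in what follows the loop: the longest model goes on for 840 bases in Hist1h1c, 1153 in Hist1h1e, 169 in Hist3h2ba and 155 in Hist1h2bg, but for 23 in Hist1h2bb, 46 in Hist1h4h and 57 in Hist2h2ac.

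Promoters, taken as the 250 bases before the start of the gene in RefSeq, were found in the RefSeq table (GRCm38.p6) for 57 of the 69 genes. For Hist1h1d, H3f3a and H3f3b the RefSeq start lies inside the GENCODE model, so the windows printed for them lie within the gene bounds of GENCODE. They were searched on both strands for 4 motifs. These were CCAAT, the box known from many promoters, then the letters TATAAA, a form of the TATA box, next ATTTGCAT, the octamer bound by Oct-1 and known from H2B promoters, and last AAACACA, known from H1 promoters as the H1 box. No match of one motif overlapped a match of another. The promoters of 3 clustered H1 genes are printed here, in the direction of the gene, with the H1 box, the CCAAT box and the TATA box in capitals where found on either strand.
Hist1h1c, chr13:23738557-23738806, plus strand: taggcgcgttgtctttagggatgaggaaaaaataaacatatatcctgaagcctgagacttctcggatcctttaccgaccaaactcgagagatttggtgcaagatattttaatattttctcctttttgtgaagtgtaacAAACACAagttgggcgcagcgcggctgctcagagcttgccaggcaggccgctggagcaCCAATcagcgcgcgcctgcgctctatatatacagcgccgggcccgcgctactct
Hist1h1e, chr13:23622559-23622808, minus strand: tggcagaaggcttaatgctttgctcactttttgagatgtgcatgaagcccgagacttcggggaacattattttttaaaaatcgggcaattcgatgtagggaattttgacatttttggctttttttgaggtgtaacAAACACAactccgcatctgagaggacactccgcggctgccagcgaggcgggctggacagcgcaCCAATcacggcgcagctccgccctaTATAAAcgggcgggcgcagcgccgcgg
Hist1h1d, chr13:23554782-23555031, plus strand: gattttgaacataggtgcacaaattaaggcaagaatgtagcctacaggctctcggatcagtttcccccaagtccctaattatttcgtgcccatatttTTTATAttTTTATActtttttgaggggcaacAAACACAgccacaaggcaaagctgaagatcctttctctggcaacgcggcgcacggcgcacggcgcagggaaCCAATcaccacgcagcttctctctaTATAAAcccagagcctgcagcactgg
In each of them AAACACA stood before CCAAT in the direction of the gene, 112 bases before the start in Hist1h1c, 115 in Hist1h1e and 122 in Hist1h1d. The testis H1 gene Hist1h1t held it 114 bases before its start. So all 4 listed clustered H1 genes had it, against 7.20% of all 27025 genes with a promoter in RefSeq. ATTTGCAT was found in 7 of 11 clustered H2A promoters, in 5 of 13 of H2B and in none of the 22 clustered H1, H3 and H4 promoters, against 1.81% of all. CCAAT stood in 38 of the 46 clustered promoters (82.6%) and in 6 of the 11 replacement promoters, against 37.5% of all. TATAAA stood in 23 of 46 (50%) and in 1 of 11, against 14.3% of all.
The remaining promoters printed are those of both genes for the replacement histone H3.3, of which H3f3a was called and H3f3b was not, and the one that the H2A gene Hist1h2ac shares with its neighbour Hist1h2bc, with all 4 motifs in capitals where found on either strand.
H3f3a, chr1:180813606-180813855, minus strand: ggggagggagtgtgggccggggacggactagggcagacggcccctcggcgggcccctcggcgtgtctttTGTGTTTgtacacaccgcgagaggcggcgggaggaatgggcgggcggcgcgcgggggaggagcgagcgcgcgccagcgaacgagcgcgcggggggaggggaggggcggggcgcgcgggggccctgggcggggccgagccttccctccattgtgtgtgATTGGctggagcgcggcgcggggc
H3f3b, chr11:116024505-116024754, minus strand: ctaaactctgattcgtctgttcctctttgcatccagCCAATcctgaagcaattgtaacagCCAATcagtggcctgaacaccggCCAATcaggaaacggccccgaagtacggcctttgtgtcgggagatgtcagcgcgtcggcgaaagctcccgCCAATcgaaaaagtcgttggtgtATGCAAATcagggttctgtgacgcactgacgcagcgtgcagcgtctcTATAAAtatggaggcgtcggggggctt
Hist1h2ac, chr13:23683960-23684209, minus strand: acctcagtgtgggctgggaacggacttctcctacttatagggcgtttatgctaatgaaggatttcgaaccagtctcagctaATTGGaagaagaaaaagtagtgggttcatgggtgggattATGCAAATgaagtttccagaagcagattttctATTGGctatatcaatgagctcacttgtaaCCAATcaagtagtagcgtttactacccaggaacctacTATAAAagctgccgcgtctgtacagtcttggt
H3f3b was the one replacement gene with TATAAA and with the octamer. Hist1h2ac and Hist1h2bc are read away from each other, with 251 bases between their starts. These matches describe letters in a window, not bound sites.

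The libraries were of similar depth, estimated at 17060000 to 20040000 reads from the steps between low FPKM values, so 1 read in a gene of 1 kilobase was worth 0.0499 to 0.0586 FPKM. The targeted gene Fyco1 had 5.40, 5.21 and 5.11 FPKM in the WT libraries and 4.61, 4.59 and 4.87 in the libraries labelled Fyco1-/-, a difference that was not called (log2 -0.15, adjusted p = 0.273 by limma), so its level over the whole gene does not check the labels. Crystallin genes held 70.2% to 71.7% of the summed FPKM, and the 7 lens fibre markers were present in each library. Of these fibre markers, 3 had a negative and 4 a positive log2 fold change. Crygd was called lower (log2 -0.09, adjusted p = 0.0418 by limma). Lgsn lay lower in each Fyco1-/- library but was not called (log2 -1.52, adjusted p = 0.0644 by limma). Markers of other tissues were low or varied within a genotype: the summed FPKM of the 7 leukocyte markers was 2.09 to 27.8 in WT and 2.33 to 2.76 in Fyco1-/- libraries, that of the 7 muscle markers 9.12 to 34.8 and 5.48 to 8.09, and that of the 7 endothelial markers 28.8 to 39.3 and 27.5 to 32.7. The highest leukocyte and muscle sums were those of WT B. No gene of the blood, leukocyte, vessel, mesenchyme, iris, cornea or muscle lists was called, and all 6 measured retina markers were under 0.5 FPKM. Of the 6 lens epithelium markers 5 had a negative log2 fold change, from -0.44 (Foxe3) to -0.16 (Cdh1), with Sfrp1 and Pax6 called lower, and Cryab was called higher (log2 0.15). In such bulk samples, fewer cells of a type and less RNA per cell cannot be told apart.

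Most clustered genes were at low levels, while most replacement genes were not. A mean of at least 0.5 FPKM over the 6 libraries was reached by 35 of the 69 genes, namely 24 of 53 clustered and 11 of 16 replacement genes, against 53.8% of the whole table. At 10 FPKM the numbers turned, to 4 clustered and 10 replacement genes. The median gene of the clustered group had a mean of 0.323 FPKM and that of the replacement group 18.8 FPKM, with 0.728 FPKM for the whole table. In 28 clustered genes and 2 replacement genes at least 1 library was listed at 0. The genes nearest above the limit of 0.5 were Hist1h3e (0.518), Hist1h2ad (0.615) and Hist2h2ac (0.619), and those nearest below were H3f3c (0.416), Hist1h3f (0.384) and H3f3a-ps2 (0.383).

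**Figure D1:**
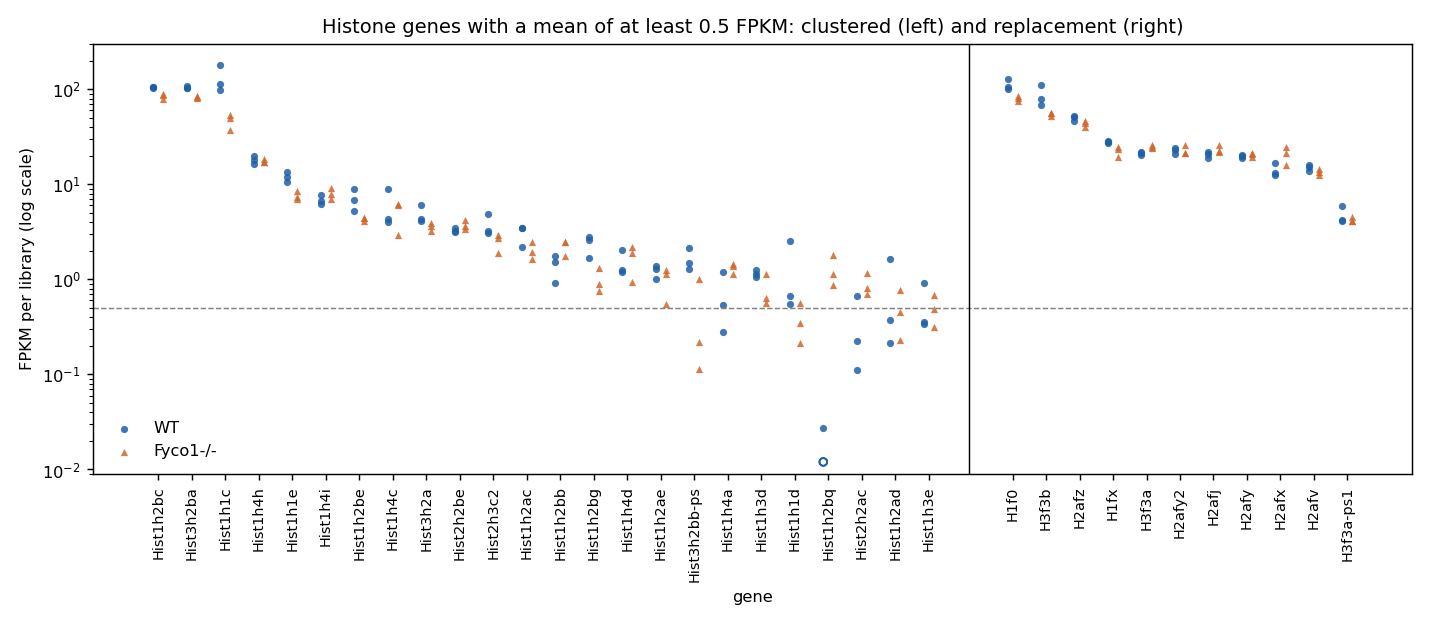
FPKM (log axis) of each of the 35 histone genes with a mean of at least 0.5 FPKM, with circles for the 3 WT and triangles for the 3 Fyco1-/- libraries, the dashed line at 0.5 FPKM and a hollow circle for values of 0. Hist1h2bc, Hist3h2ba and Hist1h1c stand above the other clustered genes, whereas 10 of the 11 replacement genes lie above 10 FPKM.

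A few genes made up most of the clustered signal. Hist1h2bc, Hist3h2ba and Hist1h1c, with means of 94.7, 93.7 and 88.3 FPKM, together held 78.5% of the summed FPKM of the 53 clustered genes. Hist1h4h, at 17.8 FPKM, was the next and the only clustered H4 gene above 10 FPKM. By histone, the limit of 0.5 FPKM was reached by 3 of 4 clustered H1 genes, 5 of 12 for H2A, 8 of 16 for H2B, 3 of 10 for H3 and 5 of 11 for H4. Of the replacement genes, the linker gene H1f0 (96.3 FPKM), the H3.3 gene H3f3b (70.5) and the H2A.Z gene H2afz (46.9) were the highest. The 5 replacement genes under the limit were the oocyte linker gene H1foo (0.0217 FPKM), H2afb1 (0.0162), the antisense RNA H3f3aos (0.272) and the H3.3 pseudogenes H3f3c and H3f3a-ps2.

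The levels also differed along the chromosome. The 44 listed Hist1 genes lie on chr13:21715763-23934851 in 3 blocks of 11, 5 and 28 listed genes. The block of 28 had 16 genes of at least 0.5 FPKM and a summed mean of 236 FPKM, and the blocks of 11 and 5 had 1 such gene each and sums of 1.99 and 7.77 FPKM. The blocks also differed in how much sequence their genes share with other genes, as given below. The part of shared sequence in the block levels was not tested. The 3 listed genes of the Hist3 array (chr11:58948920-58956830) all reached the limit, as did 3 of the 5 listed Hist2 genes (chr3:96220361-96270132). Hist4h4 (chr6:136801553-136804415) did not, at 0.0702 FPKM. Some neighbours differed in level and others were close. Among the listed genes there were 8 pairs of an H2A and an H2B gene read away from each other from starts within 1 kilobase. The H2B gene was the higher in 5 of them, and both genes reached 0.5 FPKM in 4. The H2B level was from 0.226 times (Hist1h2bf) to 37.4 times (Hist1h2bc) that of its H2A neighbour, and 0.869 times for Hist1h2bj beside Hist1h2ag. Hist1h2ac had 2.53 FPKM against 94.7 of Hist1h2bc across the shared promoter printed above, and Hist2h2ac had 0.619 FPKM against 3.52 of Hist2h2be.

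Clustered genes whose model runs on past the stem-loop had the higher levels. Of 18 genes with more than 100 bases after the loop, 14 reached 0.5 FPKM, with a median of 1.64 FPKM. Of 16 with up to 100 bases after it, 4 did, with a median of 0.162 FPKM. Model length differed too, from 614 to 7425 bases in the 18 genes and from 391 to 706 in the 16. In the other 19 genes no loop was found in the model, and 6 of them reached the limit, Hist1h2bc among them. For 8 of those 19 the model stops at the coding sequence (312 to 411 bases), so the loop could not lie in it, and none of the 8 reached the limit. Whether the libraries were made from poly(A) RNA is not given in the sources used here. The parts of RNA selection, model length and sequence shared with other genes in these levels were not tested. Of 18 listed genes for RNA known to lack a poly(A) tail, 1 (Rnu11) stands in the table.

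**Figure D2:**
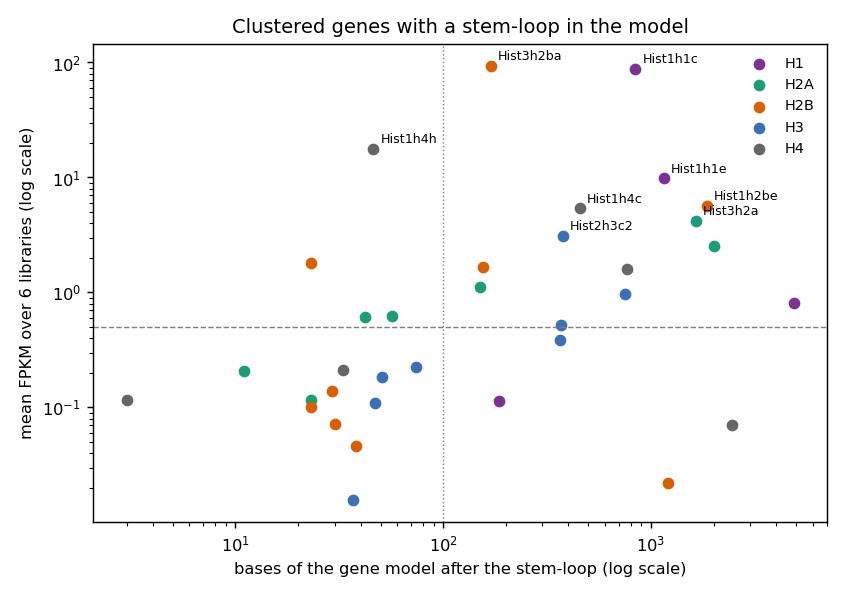
Mean FPKM over the 6 libraries against the bases of the gene model that follow the stem-loop (both axes logarithmic), for the 34 clustered genes with a stem-loop in the model, coloured by histone; lines mark 0.5 FPKM and 100 bases. Most points to the right of 100 bases lie above 0.5 FPKM (14 of 18) and most to the left lie below it (12 of 16 do).

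Sequence shared with other genes limits how firmly single clustered genes can be read. In the median clustered gene 32.2% of all stretches of 100 bases also occur in another gene, and in the median replacement gene 5.61%. The share was 22.6% in the clustered genes of at least 0.5 FPKM and 52.1% in those below. In the Hist1 blocks of 11 and 5 genes, which had the low sums, the median share was 68.6% and 70.8%. In the block of 28 genes it was 29.6%. Genes with more than 100 bases after the stem-loop had a median share of 13.04%, and those with up to 100 bases after it 39.3%. Both strands were searched, and bases where gene models overlap at one place count as shared here. For H1f0 and H1fx the only gene that shared stretches was the one overlapping them on the opposite strand. How the authors counted reads that fit several genes is not given in the sources used here.

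The summed histone signal was lower in the lenses labelled Fyco1-/-. The clustered genes summed to 400, 380 and 482 FPKM in the WT libraries A, B and C and to 291, 270 and 294 FPKM in the Fyco1-/- libraries. The means were 420 ± 54.3 and 285 ± 12.7 FPKM (SD, n = 3), a ratio of 0.678, and the groups did not overlap. The replacement genes summed to 391, 367 and 428 FPKM in WT and to 348, 327 and 324 FPKM in Fyco1-/- libraries, a ratio of means of 0.842, again without overlap. In both sums WT C was the highest library. Over the same libraries 5 of 6 lens epithelium markers and 24 of 25 tested S-phase genes had negative log2 fold changes, and their part in these sums was not tested. All 69 genes together held 0.109% ± 0.0102 of the summed FPKM of the table in WT and 0.0818% ± 0.00270 in Fyco1-/- lenses (SD, n = 3).

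The difference of the clustered sum lay mainly in its 3 highest genes. Without Hist1h1c, Hist1h2bc and Hist3h2ba it was 81.0, 72.6 and 91.3 FPKM in WT against 71.1, 71.5 and 67.7 FPKM in Fyco1-/- libraries, a ratio of 0.858. By histone, the clustered H1 genes went from a mean of 143 to 55.2 FPKM, those of H2B from 225 to 182, those of H2A from 10.8 to 8.69 and those of H3 from 7.09 to 4.77. The clustered H4 sum was 34.1 FPKM in WT and 34.4 in Fyco1-/- libraries. Of the replacement genes, the H1 sum went from 140 to 103 FPKM and the H3 sum from 113 to 85.1, while the H2A sum was 142 and 145 FPKM.

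**Figure D3:**
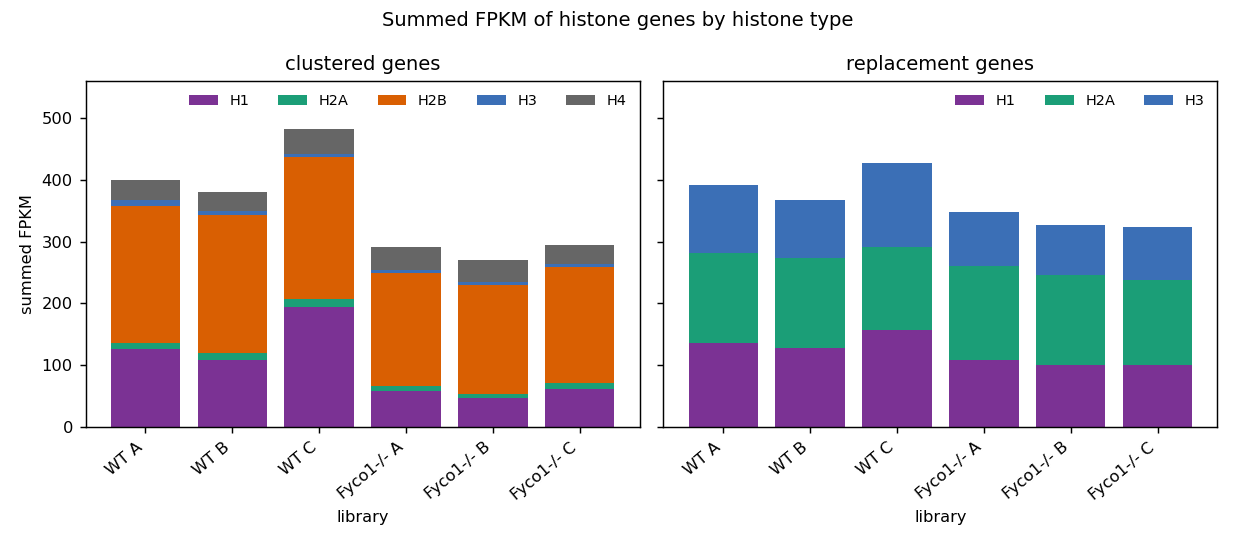
Summed FPKM of the 53 clustered (left) and 16 replacement genes (right) in each library, split by histone. The clustered H1 segment has a mean of 143 FPKM in WT and 55.2 FPKM in Fyco1-/- libraries, and the H4 segment 34.1 and 34.4 FPKM.

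Gene by gene, 2 histone genes rose and 7 fell in Fyco1-/- lenses among the 35 that could be tested. The test was limma on log2(FPKM + 0.5) over all 12001 genes with a mean of at least 0.5 FPKM, with calls made below 0.05 after Benjamini-Hochberg adjustment of the p-values. It called 8.43% of all tested genes, 3.42% as higher and 5.02% as lower. Of the 24 clustered genes tested 1 was called higher and 5 lower, where the higher one, Hist1h2bq, passed the filter on low values through its Fyco1-/- libraries alone, and of the 11 replacement genes 1 was called higher and 2 lower. The median log2 fold change was -0.28 over the tested clustered genes and -0.13 over the tested replacement genes, beside -0.04 over all tested genes. All 3 Fyco1-/- values lay below all 3 WT values in 13 of the 35 genes and above them in 3. Of all tested genes 18.6% and 11.1% did so, and 29.7% in either direction. Among those without overlap, Hist1h2bq and Hist2h2ac had WT means under the limit (0.00902 and 0.335 FPKM). Hist3h2bb-ps had a Fyco1-/- mean under it (0.451 FPKM). These genes passed the filter through the group where they are high. WT C was the highest of all 6 libraries in 12 of the 35 histone genes, a larger share than the 1211 of all 12001 tested genes. Without WT C, the medians were -0.21 for clustered, -0.20 for replacement and -0.07 for all genes, with 6 clustered and 2 replacement genes called.

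**Figure D4:**
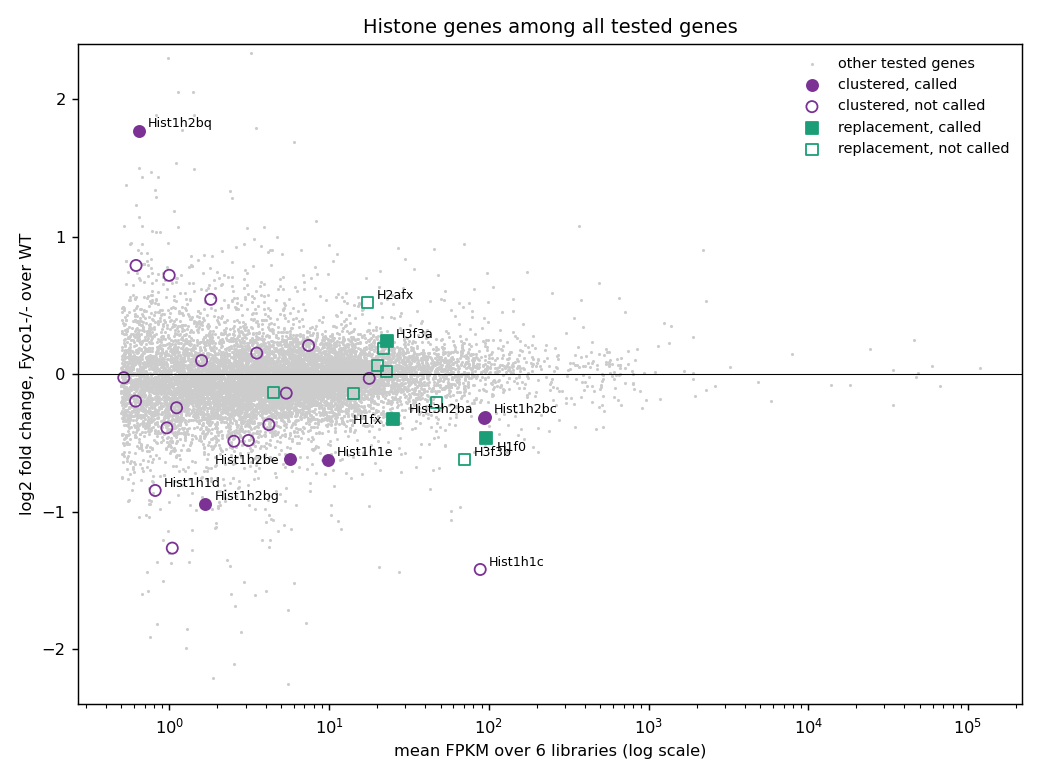
Log2 fold change of Fyco1-/- over WT against mean FPKM (log axis) for all 12001 tested genes, with the clustered genes as circles and the replacement genes as squares, filled where the adjusted p was under 0.05. Of the 9 filled symbols 2 lie above 0 (Hist1h2bq and H3f3a) and 7 below; 21 other genes beyond ±2.4 are not drawn.

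Among the linker histone genes, 3 of the 5 tested were called lower in the lenses labelled Fyco1-/-, namely Hist1h1e, H1f0 and H1fx. All 5 had a negative log2 fold change. Over all 12001 tested genes, 5.02% were called lower and 7192 had a negative log2 fold change. H1f0 (chr15:79028450-79030504) encodes the linker histone H1.0, which accumulates in cells that stop dividing. It measured 107, 100 and 129 FPKM in the WT libraries A, B and C and 85.3, 75.1 and 81.4 FPKM in those labelled Fyco1-/-. All Fyco1-/- values lay below all WT values, and the log2 fold change was -0.47 (SE 0.09, adjusted p = 0.0173 by limma). The call was lost without Fyco1-/- B (adjusted p = 0.0638 by limma) or Fyco1-/- C (0.0703).

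Hist1h1e (chr13:23620629-23622558), which encodes the somatic linker histone H1.4, had 12.04, 10.7 and 13.4 FPKM in WT and 7.02, 8.49 and 7.39 FPKM in Fyco1-/- libraries. The groups did not overlap, and the log2 fold change of -0.62 (SE 0.10, adjusted p = 0.00357 by limma) stayed called with any 1 library left out. The model of Hist1h1e overlaps that of Hist1h2be by 496 bases on the same strand, so reads there could belong to either. H1fx (chr6:87980421-87981637), a linker histone gene outside the arrays, had 28.9, 27.0 and 28.1 FPKM in WT and 23.4, 24.5 and 19.3 FPKM in Fyco1-/- libraries. Here too no values overlapped (log2 -0.32, SE 0.08, adjusted p = 0.0400 by limma), but the call was lost in 8 of the 15 alternative analyses. Among those were the ones without WT A, WT B, WT C, Fyco1-/- A or Fyco1-/- C, with an adjusted p of 0.0555 to 0.128 by limma.

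Hist1h1c (chr13:23738808-23740367), the gene of the linker histone H1.2, showed the largest difference in FPKM of the 69 genes, yet it missed the threshold. Its values were 113, 97.5 and 179 FPKM in the WT libraries and 49.8, 37.2 and 54.2 FPKM in the Fyco1-/- libraries. WT C stood well above the other WT libraries, and all 3 Fyco1-/- values lay below all WT values. The mean was 130 ± 43.1 FPKM in WT and 47.0 ± 8.85 FPKM in Fyco1-/- lenses (SD, n = 3), and the log2 fold change was -1.42 (SE 0.28, adjusted p = 0.0531 by limma). Without WT C it was -1.17 and was called (adjusted p = 0.0221 by limma). In 6 of 15 alternative analyses Hist1h1c was called lower.

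Hist1h1d, the gene of H1.3, had 0.550, 0.669 and 2.55 FPKM in WT and 0.570, 0.344 and 0.212 FPKM in Fyco1-/- libraries, where WT C again stood apart and the groups overlapped (adjusted p = 0.237 by limma). Hist1h1t, a testis gene, was at a mean of 0.113 FPKM. The 5 tested linker genes summed to 261, 236 and 352 FPKM in WT and to 166, 146 and 163 FPKM in Fyco1-/- libraries. Within that sum the share of Hist1h1c was 45.1% ± 5.02 in WT and 29.6% ± 3.93 in Fyco1-/- lenses, and that of H1f0 was 40.01% ± 3.01 and 51.0% ± 0.802 (SD, n = 3).

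**Figure D5:**
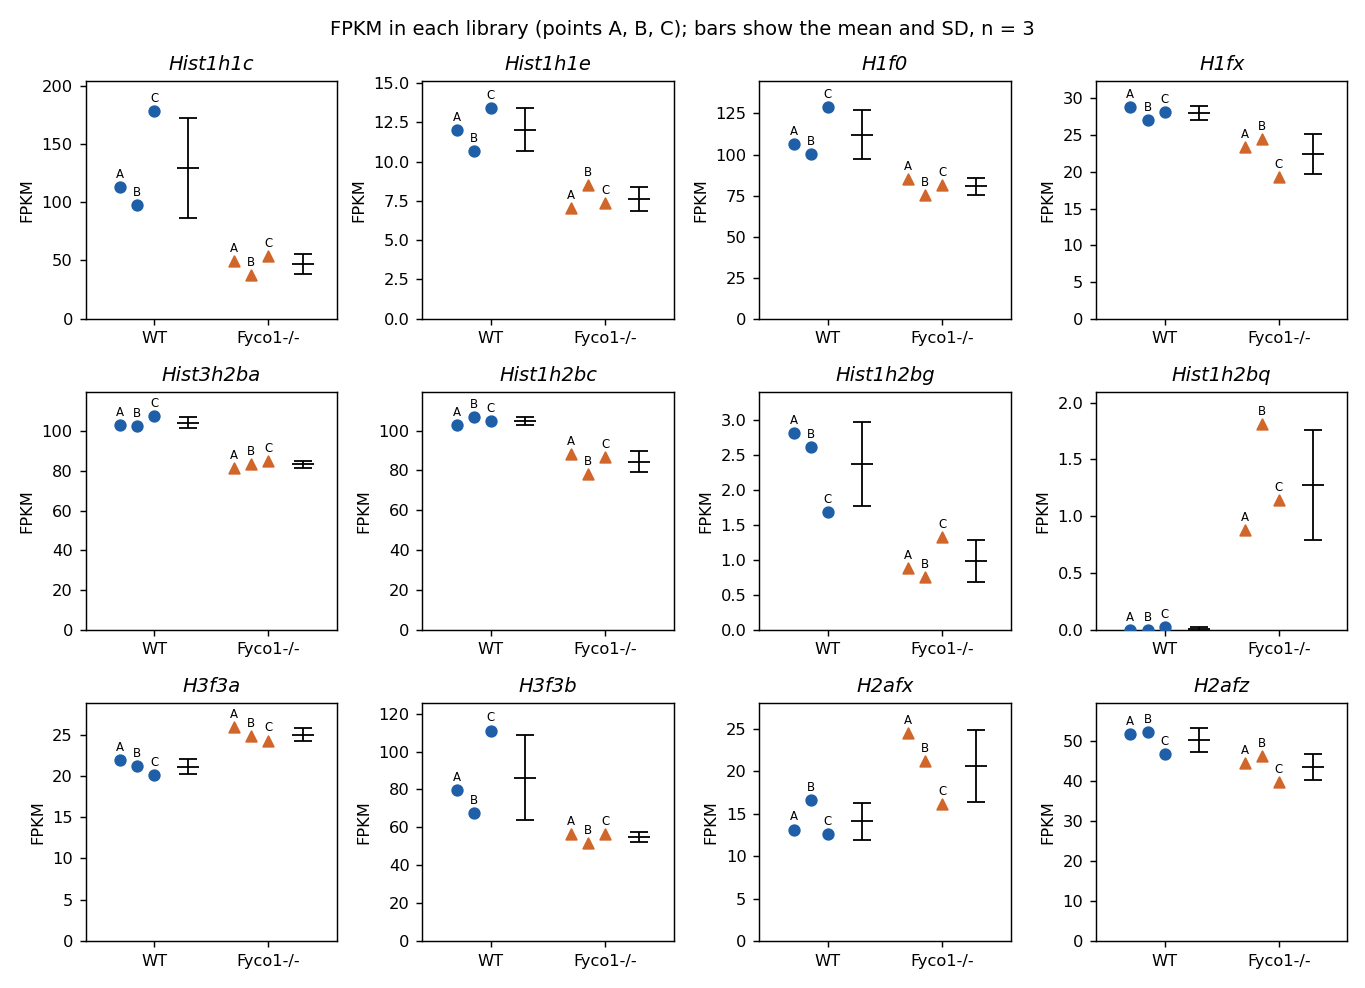
FPKM of 12 histone genes in each library (points A, B and C) with the mean and SD of each genotype (n = 3), each panel with its own axis from 0. The 4 linker genes of the top row lie lower in all Fyco1-/- libraries, Hist1h2bq and H3f3a lie higher, and in H2afx the highest WT value (16.6) exceeds the lowest Fyco1-/- value (16.1).

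Of the 8 tested H2B genes, all of them clustered, 4 were called lower and 1 higher, against 5.02% and 3.42% of all tested genes. The higher one, Hist1h2bq, passed the filter on low values through its Fyco1-/- libraries alone. Hist3h2ba (chr11:58948920-58949533) measured 103, 102 and 107 FPKM in WT and 81.4, 83.2 and 85.1 FPKM in Fyco1-/- libraries. The replicates lay close together and the groups did not overlap, with means of 104 ± 2.78 and 83.2 ± 1.84 FPKM (SD, n = 3), a log2 fold change of -0.32 (SE 0.04) and an adjusted p = 0.000775 by limma. Hist1h2bc (chr13:23684199-23692908), whose model has 2 exons, measured 103, 107 and 105 FPKM in WT and 88.3, 78.4 and 86.8 FPKM in Fyco1-/- libraries. It too was lower in each Fyco1-/- library (log2 -0.31, SE 0.05, adjusted p = 0.00387 by limma). Hist3h2ba, Hist1h2bc and Hist1h1e were called in all 15 alternative analyses.

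A pair of H2B genes at lower levels also fell. Hist1h2bg had 2.82, 2.61 and 1.69 FPKM in WT and 0.890, 0.751 and 1.32 FPKM in Fyco1-/- libraries, without overlap (log2 -0.94, SE 0.19, adjusted p = 0.0146 by limma). Hist1h2be had 6.83, 5.30 and 9.02 FPKM in WT and 4.12, 4.46 and 4.39 FPKM in Fyco1-/- libraries (log2 -0.62, SE 0.16, adjusted p = 0.0430 by limma). Its groups did not overlap either. Of the 100-base stretches of Hist1h2bg, 44.9% also occur in 4 other H2B genes, Hist1h2bc among them. The values of Hist1h2bg rest on an estimated 18.1 to 32.3 reads in WT and 9.1 to 15.5 in Fyco1-/- libraries. The model of Hist1h2be overlaps that of Hist1h1e by 496 bases on the same strand. So reads of both genes could belong to other called genes. The call of Hist1h2bg was lost without WT A (adjusted p = 0.0609 by limma), WT B (0.0592) or Fyco1-/- B (0.0526) and with no filter on low values (0.0550), and that of Hist1h2be in 8 of 15 alternative analyses, where it was lost without any 1 library other than WT B (adjusted p = 0.0569 to 0.121 by limma).

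Hist1h2bq (chr13:21806612-21810197) was the clustered gene called higher. It was listed at 0 in WT A and WT B and at 0.0271 FPKM in WT C, an estimated 0.9 reads, and at 0.876, 1.81 and 1.14 FPKM in the Fyco1-/- libraries, an estimated 33.2, 71.1 and 43.6 reads. The groups were far apart, with an adjusted p = 0.000613 by limma. The fitted log2 fold change depends on the number added to each FPKM, at 1.77 with 0.5, 3.61 with 0.1 and 1.15 with 1. Of its stretches of 100 bases, 94.8% also occur in 7 other H2B genes, Hist1h2bc and Hist1h2be among them, so reads could be placed in any of these, and its count may not be its own.

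The other 3 tested H2B genes were not called. The pseudogene Hist3h2bb-ps had 2.14, 1.29 and 1.48 FPKM in WT and 0.114, 0.220 and 1.02 FPKM in Fyco1-/- libraries. It fell just short of the threshold, without overlap (log2 -1.27, adjusted p = 0.0513 by limma). With a Fyco1-/- mean of 0.451 FPKM, it passed the filter on low values through its WT libraries. Hist1h2bb, with the short model after its stem-loop, had 0.906, 1.76 and 1.52 FPKM in WT and 2.46, 2.49 and 1.75 FPKM in Fyco1-/- libraries, which overlap. Hist2h2be had means of 3.31 and 3.74 FPKM in WT and Fyco1-/- lenses.

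None of the 11 tested H2A genes was called, though 6 of them had an unadjusted p under 0.05 in limma, as 2930 of all 12001 tested genes had. H2afz encodes H2A.Z, a variant found at promoters, and had 51.8, 52.3 and 46.8 FPKM in WT and 44.5, 46.1 and 39.7 FPKM in Fyco1-/- libraries. The lowest WT value lay just above the highest Fyco1-/- value, and the difference did not pass (log2 -0.21, SE 0.07, adjusted p = 0.0823 by limma). H2afv, the second H2A.Z gene, had means of 14.9 ± 1.11 and 13.5 ± 0.931 FPKM. H2afx encodes H2A.X, which is phosphorylated at DNA breaks, and had 13.1, 16.6 and 12.6 FPKM in WT and 24.5, 21.2 and 16.1 FPKM in Fyco1-/- libraries. The means were 14.1 ± 2.17 and 20.6 ± 4.22 FPKM, WT B and Fyco1-/- C overlapped, and the difference did not pass (log2 0.52, SE 0.16, adjusted p = 0.0998 by limma). Without Fyco1-/- C it did (adjusted p = 0.0160 by limma).

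The remaining replacement H2A genes were not called. The macroH2A genes H2afy and H2afy2, whose large variants carry an extra domain, had means of 19.7 ± 0.665 and 22.6 ± 1.72 FPKM in WT and 20.6 ± 0.867 and 23.0 ± 2.56 FPKM in Fyco1-/- lenses. H2afj had 20.6 ± 1.67 and 23.5 ± 2.06 FPKM (SD, n = 3). Of the clustered H2A genes, Hist3h2a was the highest at 4.82 ± 1.09 and 3.58 ± 0.333 FPKM, and its model shares 708 bases with Trim17 on the same strand. Hist1h2ac had 2.21, 3.45 and 3.50 FPKM in WT and 2.45, 1.94 and 1.66 FPKM in Fyco1-/- libraries (log2 -0.49, adjusted p = 0.115 by limma), where WT A and Fyco1-/- A overlapped. Hist2h2ac had the largest positive log2 fold change of an H2A gene, with 0.225, 0.670 and 0.110 FPKM in WT and 0.816, 1.18 and 0.708 FPKM in Fyco1-/- libraries. Its values did not overlap, but they rest on few reads (log2 0.79, adjusted p = 0.0828 by limma). With a WT mean of 0.335 FPKM, the gene passed the filter on low values through its Fyco1-/- libraries.

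H3f3a and H3f3b encode the same protein, H3.3, the H3 variant laid down outside replication, and of the pair only H3f3a was called. H3f3a (chr1:180800832-180813943) had 21.9, 21.2 and 20.1 FPKM in WT and 25.9, 24.8 and 24.3 FPKM in Fyco1-/- libraries. Each Fyco1-/- value lay above each WT value, and the gene was called higher (log2 0.24, SE 0.05, adjusted p = 0.0252 by limma). The call was lost without WT B (adjusted p = 0.0700 by limma), WT C (0.0706), Fyco1-/- A (0.0705) or Fyco1-/- B (0.0688), and with no filter on low values (0.0650). Part of the model, 638 bases, overlaps Gm17275 on the opposite strand, and the handling of strand is not given in the sources used here.

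H3f3b (chr11:116021912-116027962), the more abundant of the pair, had 79.7, 67.8 and 111 FPKM in WT and 56.3, 51.8 and 56.3 FPKM in Fyco1-/- libraries. All Fyco1-/- values were the lower ones and WT C stood out, and the difference did not pass (log2 -0.62, SE 0.18, adjusted p = 0.106 by limma). Without WT C it did (log2 -0.42, adjusted p = 0.0145 by limma). The pair summed to 102, 89.1 and 131 FPKM in WT and to 82.2, 76.6 and 80.6 FPKM in Fyco1-/- libraries. H3f3a made up 21.6%, 23.9% and 15.3% of the pair in WT and 31.5%, 32.4% and 30.1% in Fyco1-/- libraries, with no overlap.

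The clustered H3 and H4 genes held no call. Hist2h3c2, the highest clustered H3 gene, had 4.93, 3.08 and 3.21 FPKM in WT and 2.91, 2.71 and 1.91 FPKM in Fyco1-/- libraries (log2 -0.48, adjusted p = 0.148 by limma), with 61.6% of its 100-base stretches shared with other genes. Its Fyco1-/- values all lay below the WT values. Hist1h3d and Hist1h3e had means of 1.15 and 0.537 FPKM in WT and 0.779 and 0.4999 FPKM in Fyco1-/- lenses. Hist1h4h had 18.1, 16.2 and 19.9 FPKM in WT and 17.3, 18.3 and 17.2 FPKM in Fyco1-/- libraries, which lay inside the WT range (log2 -0.03, SE 0.07, adjusted p = 0.843 by limma). Hist1h4i had 6.86 ± 0.718 and 8.02 ± 1.08 FPKM and Hist1h4c 5.72 ± 2.73 and 5.07 ± 1.85 FPKM (SD, n = 3), with WT C at 8.87 FPKM for Hist1h4c. Hist1h4a had 1.19, 0.277 and 0.533 FPKM in WT and 1.38, 1.14 and 1.46 FPKM in Fyco1-/- libraries (log2 0.72, adjusted p = 0.116 by limma), with an overlap at WT A.

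In the authors' deposited table, 9 histone genes had an adjusted p under 0.05, of 29 with such a value, and 9.37% of all genes with one did. In the authors' deposited table these were Hist1h2bq, H3f3a and H2afx as higher and Hist1h1c, H1f0, Hist1h2bc, Hist3h2ba, Hist1h1e and Hist1h2be as lower. Hist1h1c had a log2 fold change of -0.67 and an adjusted p = 0.00147 in the authors' deposited table, and H2afx 0.51 and 0.000482. Both missed the threshold in limma. Hist1h2bg and H1fx were called in limma and were not among the 9 of the authors' deposited table.

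Of the tested genes that act on histones and their mRNA, 1 was called by limma, where 8.43% of all tested genes were. In the authors' deposited table, 2 of 16 genes of histone mRNA 3′ processing and transcription had an adjusted p under 0.05. So did 2 of 16 chaperones of replication and 1 of 15 chaperones and exchangers of replacement histones there, against 9.37% of all genes. Slbp, which binds the stem-loop, had 5.19, 6.09 and 4.25 FPKM in WT and 4.68, 3.76 and 3.73 FPKM in Fyco1-/- libraries, which overlapped (log2 -0.31, adjusted p = 0.177 by limma). None of the 16 tested genes of histone mRNA 3′ processing and transcription was called, Npat and Casp8ap2 included, the factors of the histone locus body (log2 -0.08 and -0.20), though 6 had an unadjusted p under 0.05 in limma (2930 of 12001 over all tested genes). Of 15 tested chaperones that deliver histones during replication, 1 was called (6.67%), near the share of all tested genes. It was Rbbp4, a subunit of chromatin assembly factor, at 44.1 ± 0.629 FPKM in WT and 36.8 ± 1.84 FPKM in Fyco1-/- lenses (SD, n = 3). Its log2 fold change was -0.26 (adjusted p = 0.0112 by limma). Chaf1a and Asf1b of the same list had log2 fold changes of -0.30 and 0.08. Nasp, also of that list, lay higher in each Fyco1-/- library and just missed the threshold (log2 0.27, adjusted p = 0.0501 by limma). In this list 9 genes had a negative and 6 a positive log2 fold change. Of 15 tested chaperones and exchangers of replacement histones none was called, with 2 at an unadjusted p under 0.05 in limma. Hira and Daxx, which deliver H3.3, had log2 fold changes of 0.21 and 0.13. Cenpa, the centromeric H3 variant whose symbol is outside the name rule, had means of 4.94 and 3.78 FPKM in WT and Fyco1-/- lenses (log2 -0.34, adjusted p = 0.181 by limma).

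Genes that act in DNA replication were among those that fell. Of 25 tested S-phase genes 5 were called lower and none higher, 24 had a negative log2 fold change and the median was -0.31. Over all 12001 tested genes 5.02% were called lower, 7192 had a negative log2 fold change and the median was -0.04. The list summed to 79.8, 82.5 and 71.7 FPKM in WT and to 57.1, 61.0 and 53.9 FPKM in Fyco1-/- libraries, without overlap, and WT C was the lowest WT library here but the highest in the histone sums. Pcna, the sliding clamp of the replication fork, had 13.4, 13.6 and 12.5 FPKM in WT and 8.67, 8.20 and 7.001 FPKM in Fyco1-/- libraries (log2 -0.70, adjusted p = 0.000746 by limma). Mcm6, a helicase subunit, had 2.90 ± 0.421 FPKM in WT and 1.252 ± 0.0820 in Fyco1-/- lenses (SD, n = 3; adjusted p = 0.00107 by limma), and Rrm2, a subunit of ribonucleotide reductase, 3.03 ± 0.610 and 1.40 ± 0.457 FPKM (adjusted p = 0.0153 by limma). Tk1, a thymidine kinase, and Uhrf1, which binds newly replicated DNA, were the other two called lower. The calls of Rrm2 (adjusted p = 0.0521 to 0.0601 by limma) and Uhrf1 (0.0623 to 0.102) were lost without WT A, WT B or Fyco1-/- C, and that of Uhrf1 also without Fyco1-/- A. The lens epithelium markers had a median log2 of -0.21, with 5 of 6 negative and Cryab called higher (log2 0.15). The part of epithelial or dividing cells in the histone levels was not tested.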

How the data were processed

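RNA-seq libraries of newborn mouse lenses (3 WT, 3 labelled Fyco1-/-) came from total RNA and the NEB Next Ultra kit. Per the labels, the authors used STAR 2.5 for alignment to GRCm38/mm10 and HTSeq 0.6.1 for quantification, and deposited FPKM values for each library. The log2 fold changes, p-values and adjusted p-values of their table were deposited by the authors from DESeq2 (release not given in the sources used here). Annotation, strand setting, handling of multiply mapped reads and scaling total are not given in the sources used here.

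The members were found by symbol prefix. Genes with a mean of at least 0.5 FPKM (12001 of 22298) entered a limma fit (limma 3.58.1, R 4.3.3) of log2(FPKM + 0.5), using trend and robust moderation, genotype as the only term and Benjamini-Hochberg adjustment over all tested genes, two-sided, with calls at an adjusted p below 0.05. Folds on that scale understate the change of low genes. An exact permutation of 3 against 3 libraries cannot go below 0.1. The steps were tested on simulated data. Library letters did not pair the samples (correlations of deviations -0.03, 0.03 and 0.03). All 69 symbols matched GENCODE M21, used for models, shared sequence and the stem-loop, and promoters came from RefSeq (GRCm38.p6). Depth was estimated from the steps between low FPKM values, as the depth that placed the largest share of them within 0.05 reads of whole reads. At that depth 49.8% to 52.1% did. A depth fixed beforehand would give 10% by chance, so the 10% is no test of a depth chosen in this way.

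The members, gene lists and named genes were chosen with earlier results of these data known. Named genes were the called members, the 12 highest clustered and 12 highest replacement genes, the 3 nearest the limit on either side, 8 histone factors and up to 4 called genes of each pathway list. Other genes are named to describe their kind and were chosen after their values were seen. Alternatives changed the pseudocount, filter, moderation, scaling or block, or left out 1 library.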

Additional observations from a re-analysis of the deposited data

How the results depend on the processing

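With no filter on low values 568 genes were called in all (main 1012) and 1 replacement gene (main 3), and the median log2 was -0.14 for clustered and 0.031 for replacement genes. Quantile normalization gave a replacement median of -0.077. The number called with 1 library left out ran from 611 to 870 for all genes, 3 to 6 for clustered genes (main 6) and 1 to 2 for replacement genes. It was 611 without WT B, 614 without WT A, 641 without Fyco1-/- C and 670 without Fyco1-/- B. The 3 clustered calls stood without Fyco1-/- B, where Hist1h2bq did not pass the filter, and the single replacement calls without Fyco1-/- A or B. Those medians ran from -0.33 to -0.21 for clustered and -0.198 to 0.025 for replacement genes. With a replicate block on the letters, 929 genes in all, 8 clustered and 5 replacement genes (main 3) were called, H3f3b, H2afx, H2afz, Hist1h1c and Hist2h2ac being added and H1fx lost. Median-of-ratios scaling raised the share of calls that were higher from 40.5% to 56.5%. With members sharing over 50% of their 100-base stretches left out, an alternative chosen after seeing the data, 5 clustered and 3 replacement genes were called.

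Small log2 values that were never called changed sign. Under median-of-ratios scaling Hist1h4h had 0.013 and Hist1h3e 0.00076, and under quantile normalization Npat had 0.00023. With 1 library left out the log2 values ran from -0.105 to 0.039 for Hist1h4h, -0.154 to 0.110 for Hist1h3e, -0.218 to 0.025 for H3f3a-ps1, -0.330 to 0.199 for Hist1h4c, -0.067 to 0.067 for H2afy2, -0.509 to 0.0019 for Hist1h2ad and -0.056 to 0.198 for Asf1b. The cause was not tested. The deposited values are not counts, so no counting intervals are given.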
